A study of Mus musculus with 32 samples.

Results

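*Mecom*, *Mef2c*, *Myb*, *Zeb2*, *Eya1*, *Jmjd1c*, *Cdk6* and *Bcl2* are known target genes of MLL fusion proteins that lie outside the *Hox* clusters. These 8 genes, of 21938 protein-coding genes in GENCODE M21, were chosen by name, and binding of MLL-AF9 itself was not measured in these libraries. Their chromatin was read from the peak lists of 16 ChIP-seq libraries of primary *MLL-AF9* leukemias, which cover H3K4me3, H3K9ac, H3K27ac and H3K4me1 with 2 replicates per genotype. Donor mice were *Kat2a* Flox/Flox and carried either no Mx1-Cre allele (*Kat2a* WT) or a Mx1-Cre allele (*Kat2a* KO), and donors of both genotypes received pIpC, which switches on the interferon-responsive Mx1 promoter. Lineage-depleted marrow of these donors was transduced with a retrovirus carrying *MLL-AF9* and grew into leukemias in lethally irradiated recipients. Leukemic marrow of 5 WT and of 4 KO animals was pooled, and the replicates are separate preparations of the same pools, so the spread between them holds no variation between leukemias. The labels give 5000000 cells for H3K4me3 and H3K9ac and 500000 for H3K27ac and H3K4me1, so marks differ in input. The lists give peak positions and enrichments without read counts, so the depth of each library is unknown.

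MLL fusion proteins keep the CXXC domain, with which MLL binds DNA rich in unmethylated CpG, and recruit DOT1L and elongation factors to the bodies of their target genes. H3K4me3 marks active promoters, H3K4me1 marks enhancers and the edges of promoters, and H3K9ac and H3K27ac mark active promoters and enhancers. Kat2a is an acetyltransferase for H3K9, and the comparison of *Kat2a* KO with WT asks where that mark depends on it. *Mecom*, *Mef2c*, *Myb* and *Zeb2* encode transcription factors, *Eya1* a transcriptional coactivator with phosphatase activity, *Jmjd1c* a chromatin protein with a JmjC domain, *Cdk6* a cell-cycle kinase and *Bcl2* an inhibitor of apoptosis.

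The starts at which the marks lay differ widely in CpG content. RefSeq (GRCm38.p6, the sequence of mm10) gives promoter windows of 300 bases for 7 of the 8 genes, all but *Eya1*, with 14 windows in all. A window here held a median of 7 CpG over 32851 promoters. The 6 windows printed here set an unmarked start of *Mef2c* beside a marked one, show both marked starts of *Mecom*, and add the CpG-rich starts of *Cdk6* and *Jmjd1c*. All are written 5′ to 3′ on the transcribed strand with each CpG in capitals. They are the *Mecom* starts of MDS1-EVI1 (chr3:30509710-30510009, minus strand) and of EVI1 (chr3:30013155-30013454, minus strand), the outermost and the next *Mef2c* start (chr13:83503784-83504083 and chr13:83523406-83523705, plus strand), and starts of *Cdk6* (chr5:3343643-3343942, plus strand) and *Jmjd1c* (chr10:67126838-67127137, plus strand).
Mecom upstream start: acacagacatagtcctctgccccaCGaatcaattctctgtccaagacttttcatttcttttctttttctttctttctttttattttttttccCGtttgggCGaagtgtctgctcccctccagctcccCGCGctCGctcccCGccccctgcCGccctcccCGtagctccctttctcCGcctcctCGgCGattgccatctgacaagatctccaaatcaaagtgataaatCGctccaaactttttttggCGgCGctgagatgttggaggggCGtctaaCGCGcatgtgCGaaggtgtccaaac
Mecom internal start: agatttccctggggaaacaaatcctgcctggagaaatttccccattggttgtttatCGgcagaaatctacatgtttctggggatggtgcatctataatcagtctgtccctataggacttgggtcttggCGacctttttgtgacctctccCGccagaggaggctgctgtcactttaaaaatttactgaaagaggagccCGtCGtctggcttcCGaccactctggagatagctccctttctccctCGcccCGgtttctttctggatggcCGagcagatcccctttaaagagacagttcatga
Mef2c outermost start: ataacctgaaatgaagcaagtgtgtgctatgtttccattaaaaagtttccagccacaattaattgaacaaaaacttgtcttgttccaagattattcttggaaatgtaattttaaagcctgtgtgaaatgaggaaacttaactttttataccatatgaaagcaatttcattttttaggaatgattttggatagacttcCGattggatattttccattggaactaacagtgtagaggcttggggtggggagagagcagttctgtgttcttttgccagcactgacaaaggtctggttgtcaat
Mef2c next start: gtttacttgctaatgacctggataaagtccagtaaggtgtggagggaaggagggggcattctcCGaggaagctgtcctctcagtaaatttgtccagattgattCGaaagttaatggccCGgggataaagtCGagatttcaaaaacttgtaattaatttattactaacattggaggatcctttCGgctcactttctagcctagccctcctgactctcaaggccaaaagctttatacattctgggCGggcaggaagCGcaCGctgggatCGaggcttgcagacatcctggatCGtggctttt
Cdk6 start: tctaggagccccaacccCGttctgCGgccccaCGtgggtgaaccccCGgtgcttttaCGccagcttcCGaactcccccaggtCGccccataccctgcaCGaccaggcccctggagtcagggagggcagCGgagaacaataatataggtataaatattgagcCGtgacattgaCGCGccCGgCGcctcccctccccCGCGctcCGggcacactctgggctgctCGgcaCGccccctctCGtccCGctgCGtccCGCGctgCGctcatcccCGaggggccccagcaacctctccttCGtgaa
Jmjd1c start: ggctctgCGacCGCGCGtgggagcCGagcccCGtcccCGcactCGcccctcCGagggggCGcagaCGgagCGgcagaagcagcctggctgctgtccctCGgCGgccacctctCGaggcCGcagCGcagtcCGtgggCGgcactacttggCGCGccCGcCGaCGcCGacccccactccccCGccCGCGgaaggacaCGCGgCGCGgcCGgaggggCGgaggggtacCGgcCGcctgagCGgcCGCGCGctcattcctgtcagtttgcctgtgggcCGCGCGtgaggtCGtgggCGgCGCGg

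The *Mef2c* outermost window holds 1 CpG and lay under no H3K4me3 or H3K9ac peak in any of the 4 libraries of each mark. The next *Mef2c* window holds 10 CpG and lay under peaks of both marks in all 4 libraries. The *Mecom* upstream window holds 19 CpG and was also marked in all 4 libraries by both marks. The *Mecom* internal window holds 9 CpG and had H3K9ac in all 4 libraries but H3K4me3 in 2 libraries. The windows of *Cdk6* (27 CpG) and *Jmjd1c* (47 CpG) were marked by both marks in all 4 libraries, as was the unprinted *Myb* window with 40 CpG. The outermost *Zeb2* window, with 9 CpG, was also marked in all 4 libraries by both marks. The unprinted *Bcl2* window, with 44 CpG, had H3K9ac in all 4 libraries but H3K4me3 in 2 libraries. Of the 14 windows, only the one with 1 CpG was without H3K9ac, and the others had it in all 4 libraries. The *Zeb2* windows chr2:45113230-45113529 and chr2:45113204-45113503 overlap almost fully. The share of all RefSeq promoters under these marks is not given here. These counts therefore do not show a trait of the 8 genes or of CpG content. The E-box CACGTG, searched on both strands, lies in 1 of the 14 windows, that of *Cdk6*, and in 7.15% of all promoters. The ETS motif CCGGAAGT, searched on both strands, lies in 0 of the 14 windows and in 3.89% of all promoters.

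All 8 genes carried H3K4me3 and H3K9ac at a promoter in every library of these marks. A promoter was taken as 1 kb upstream to 500 bp downstream of any annotated transcription start site. Over all protein-coding genes, the share with H3K4me3 was 55.6% and 48.7% in the WT libraries and 51.8% and 53.0% in the KO libraries. For H3K9ac it was 54.4% and 52.7% in WT and 51.5% and 52.2% in KO. H3K27ac was present at all 8 promoters in replicate 2 of both genotypes, beside 44.3% of all genes in WT and 49.8% in KO. H3K4me1 reached the promoter windows of fewer of them. In replicate 2 it did so at *Mef2c*, *Myb* and *Jmjd1c* in WT, 3 of 8 genes beside 18.4% of all genes, and at these and *Zeb2* in KO, 4 of 8 genes beside 37.2%.

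Replicate 1 of H3K27ac and of H3K4me1 stood apart from the other libraries. Its peaks had a median width of 48 or 49 bp in each genotype. A q-value of at most 0.05 was reached by 13 and 0 peaks of H3K27ac in WT and KO, and by 0 and 5 peaks of H3K4me1. The study left out 1 replicate of each of these marks without naming it. In replicate 1, H3K27ac peaks touched the promoters of 3 of the 8 genes in WT, beside 12.7% of all genes, and 1 in KO, beside 0.470%. H3K4me1 peaks touched those of 1 gene in WT, beside 1.85%, and 2 in KO, beside 3.29%. These lists differ in length, with 26791 and 2725 peaks of H3K27ac and 5368 and 27423 peaks of H3K4me1 in WT and KO. Values for these marks are therefore given from replicate 2, with 1 library per genotype and no test. The 2 H3K4me1 libraries of replicate 2 also differ. In WT, 34.3% of peaks had a q-value of at most 0.05, with a median width of 215 bp. In KO it was 83.6%, with a median width of 425 bp. Every WT value of H3K4me1 from replicate 2 rests on that weaker library.

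The marrow was checked against markers of its cell types by promoter peaks, which do not measure the share of a cell type. Of 8 myeloid marker genes, 8 and 5 had H3K4me3 in WT replicates 1 and 2, and 7 and 6 in KO. H3K9ac was at all 8 in both WT libraries, at 6 in KO replicate 1 and at 8 in KO replicate 2. Of 5 T cell markers, 0 to 1 had H3K4me3 and 2 had H3K9ac. Of 5 erythroid markers, 0 to 1 had H3K4me3 and 0 to 2 had H3K9ac. Of 4 megakaryocyte markers, 1 to 2 had H3K4me3 and 2 had H3K9ac, and the 4 endothelial or stromal markers gave the same counts. Over all protein-coding genes the share was 48.7% to 55.6% for H3K4me3 and 51.5% to 54.4% for H3K9ac. A further list of lineage markers was read but is not reported. Among the lists printed here the marks lay mainly at the myeloid markers, and the labels name an acute myeloid leukemia. In pooled cells, a larger share of cells with a mark and more of the mark per cell cannot be told apart.

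The promoter domains of 7 of the 8 genes were among the widest of all genes in H3K9ac. A domain is a run of peaks joined across gaps of at most 1 kb that overlaps a promoter, and the widest domain of a gene was used. In each H3K9ac library, 7 of the 8 genes were at or above the 90th percentile of width, and the exception each time was *Bcl2*. The members' median percentile was 99.1 and 98.7 in WT and 99.4 and 99.0 in KO. For H3K4me3, 7, 6, 7 and 7 genes reached the 90th percentile in WT replicates 1 and 2 and KO replicates 1 and 2. The genes below it were *Bcl2* in WT replicate 1, *Mecom* and *Bcl2* in WT replicate 2, *Jmjd1c* in KO replicate 1 and *Bcl2* in KO replicate 2. A gene with many start sites has more chances of a wide domain, and the 8 genes have between 1 and 8 separate promoter windows. With the outermost start site alone, 6 of the 8 genes had H3K4me3 and H3K9ac in every library, since *Mecom* and *Mef2c* are not marked there. By that definition 44.1% to 51.3% of all genes had H3K4me3 and 47.5% to 50.4% had H3K9ac over the 4 libraries.

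**Figure D1:**
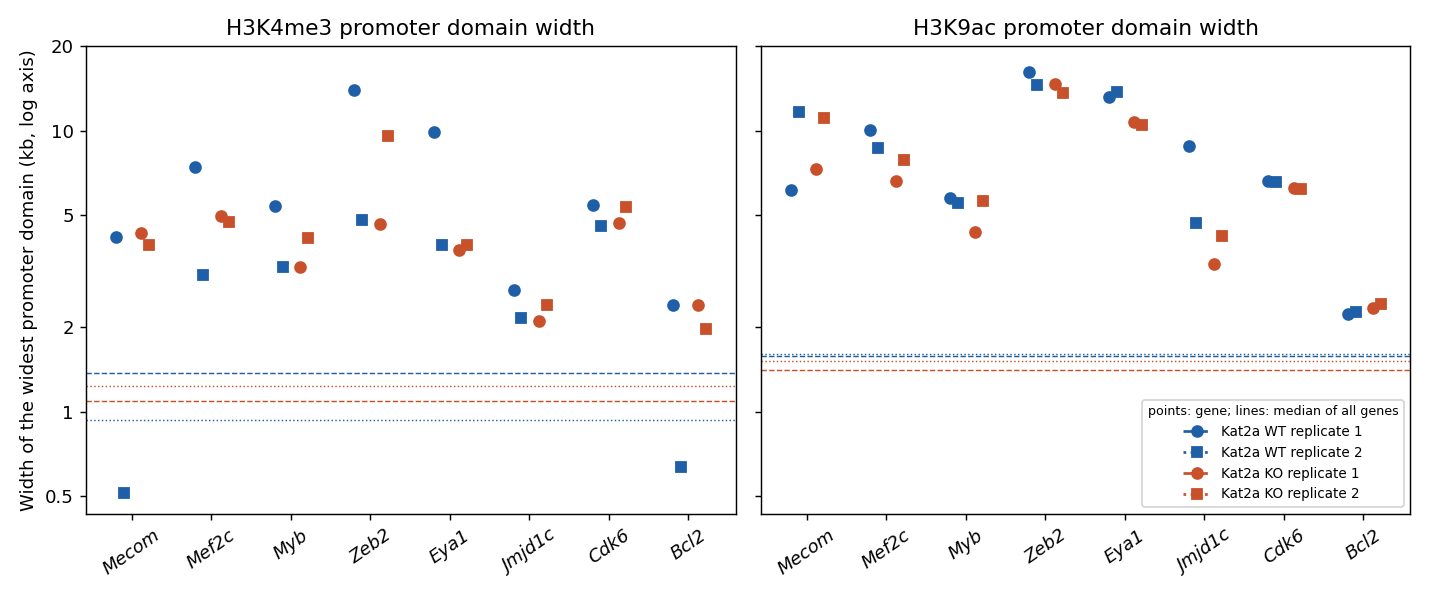
Width in kb (log axis) of the widest H3K4me3 and H3K9ac promoter domain of each gene in each of the 4 libraries, with lines at the median of all genes. *Zeb2* has H3K9ac domains of 13555 to 16116 bp, and *Bcl2* has domains of 2228 to 2409 bp.

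*Zeb2*, a zinc finger transcription factor, had the widest H3K9ac domain of the 8 genes in each of the 4 libraries. It measured 16116 and 14509 bp in WT and 14621 and 13555 bp in KO. Its H3K4me3 domain measured 13916 and 4796 bp in WT and 4650 and 9578 bp in KO. The H3K4me3 width of *Zeb2* therefore varied more within a genotype than between genotypes, and the groups overlapped. Peaks of both marks lay at the outermost start and at clusters of starts 3.89 and 6.22 kb into the gene. The *Zeb2* start sites 63.2 and 93.7 kb into the gene had no H3K4me3 or H3K9ac peak.

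*Mef2c*, a MADS-box transcription factor, was marked at start sites inside its gene. A cluster of 11 start sites 19.4 kb downstream of the outermost one was marked in every library, with H3K9ac enriched 18.3-fold and 20.2-fold over background in WT and 20.5-fold and 20.2-fold in KO. A second cluster, 68.3 kb in, had H3K9ac at 11.9-fold and 10.05-fold in WT and 12.8-fold and 6.88-fold in KO. It had H3K4me3 in WT replicate 1 and KO replicate 2. Starts 71.1 kb in had the same H3K9ac values, and H3K4me3 in WT replicate 1 and in both KO libraries. The widest H3K9ac domain of *Mef2c* measured 10082 and 8643 bp in WT and 6638 and 7889 bp in KO. Both KO values are below both WT values, but in KO replicate 1 the widest domain was the one at 68.3 kb. Its H3K4me3 domain measured 7401 and 3076 bp in WT and 4979 and 4714 bp in KO, so the KO values lay between those of WT.

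*Mecom* was marked at both of the starts from which its known long and short products arise. The outermost annotated start had no H3K4me3 or H3K9ac peak in any library, and the marked upstream start lay 38.2 kb into the gene. There H3K9ac was enriched 8.98-fold and 13.6-fold in WT and 17.1-fold and 12.6-fold in KO. At the internal start, 535 kb into the gene, H3K9ac was enriched 11.5-fold and 16.4-fold in WT and 7.65-fold and 13.7-fold in KO. Neither start stood above the other in all 4 libraries. The widest H3K4me3 domain measured 4189 and 516 bp in WT and 4329 and 3917 bp in KO. The value of WT replicate 2 comes from the internal start and the other 3 from the upstream start.

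*Myb*, a transcription factor of blood progenitors, was marked at its outermost start in every H3K4me3 and H3K9ac library. Its H3K9ac domain measured 5750 and 5528 bp in WT and 4361 and 5633 bp in KO. Its H3K4me3 domain measured 5408 and 3270 bp in WT and 3263 and 4141 bp in KO. The groups overlapped in both marks. *Eya1* had H3K9ac domains of 13150 and 13698 bp in WT and 10711 and 10448 bp in KO, second in width to *Zeb2* in WT replicate 1, WT replicate 2 and KO replicate 1. Its H3K4me3 domain measured 9870 bp in WT replicate 1 and 3768 to 3921 bp in the other 3 libraries.

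*Jmjd1c* had the highest H3K9ac enrichment of the 8 genes in WT replicate 1 and in KO replicate 1. At its outermost start the enrichment was 32.4-fold and 21.9-fold in WT and 32.5-fold and 24.7-fold in KO. *Reep3* begins from the same domain, so these values belong to both genes. Further starts 31.1 and 89.6 kb into *Jmjd1c* carried both marks in every library. *Cdk6* had H3K9ac domains of 6592 and 6564 bp in WT and 6244 and 6215 bp in KO, at its first start and a cluster 2.25 kb further in. The H3K9ac enrichment there was 17.7-fold and 31.8-fold in WT and 14.4-fold and 11.5-fold in KO, and the H3K4me3 domains measured 5448 and 4570 bp in WT and 4689 and 5345 bp in KO. *Bcl2* was the narrow exception, with H3K9ac domains of 2228 and 2255 bp in WT and 2330 and 2409 bp in KO, at the 73.5, 73.2, 83.6 and 79.7 percentile. Its enrichment was 16.1-fold and 9.97-fold in WT and 14.04-fold and 17.6-fold in KO.

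The domains extended into the genes and not equally to both sides of the start. H3K9ac reached further downstream than upstream of the first start site in the domain at 8 of the 8 genes in both WT libraries and in KO replicate 1, and at 7 in KO replicate 2. The exception was *Mecom* in KO replicate 2, with 5860 bp upstream and 5232 bp downstream. Most genes show the same asymmetry, with 80.0% and 78.7% of genes in WT and 79.5% and 79.2% in KO. The length differed more. Further starts inside a domain, as at *Zeb2*, *Eya1* and *Cdk6*, count as downstream reach. The number of start sites was not matched between the 8 genes and all genes. The median downstream reach of the 8 genes was 6362.5 and 5445.5 bp in WT and 4375.5 and 5133.5 bp in KO, against 994 and 988 bp and 889 and 946 bp for all genes. *Zeb2* reached furthest, from 12571 to 14393 bp over the 4 libraries, followed by *Eya1* with 9708 to 12411 bp. For H3K4me3 the median downstream reach of the 8 genes was 4434.5 and 2186.5 bp in WT and 3614.5 and 3344 bp in KO. For all genes it was 900 and 718 bp in WT and 763.5 and 833 bp in KO.

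**Figure D2:**
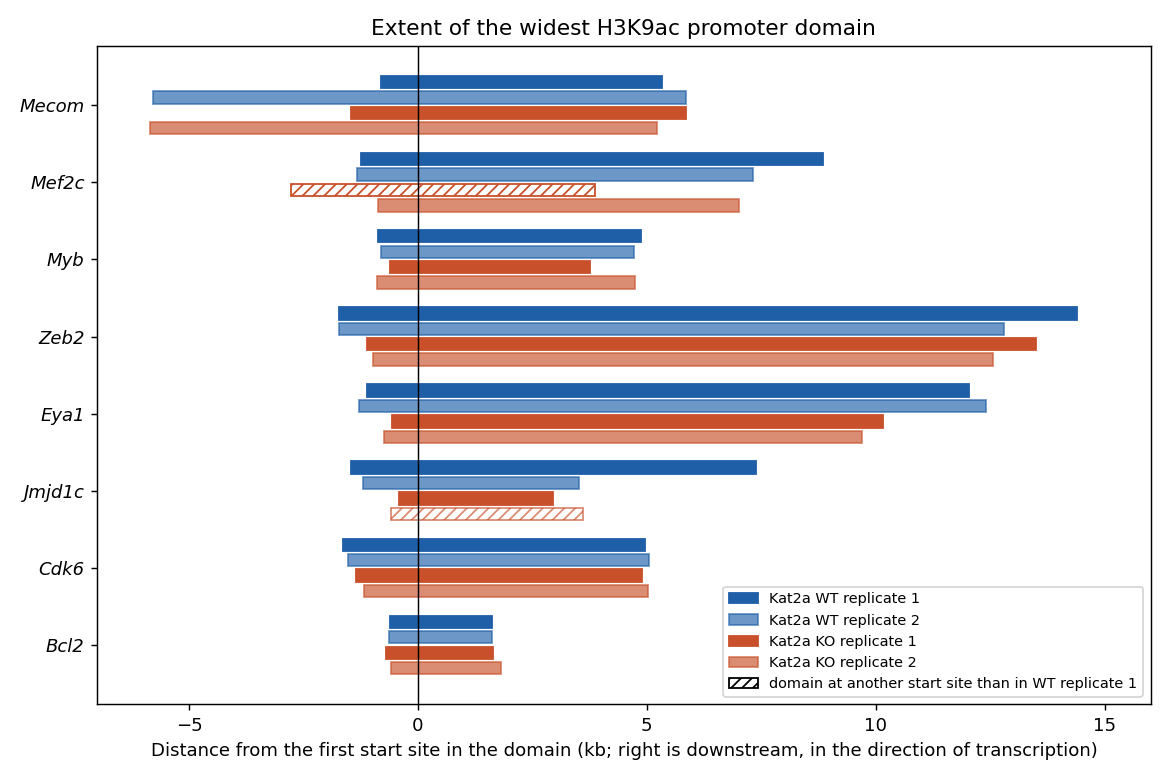
Extent in kb of the widest H3K9ac promoter domain on each side of the first start site it covers, 1 bar per gene and library, with hatched bars where the domain lies at another start than in WT replicate 1. The *Zeb2* domain reaches 12571 to 14393 bp downstream, and the *Bcl2* domain 1619 to 1825 bp.

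*Kat2a* KO and WT did not differ in promoter domain width for any of the 8 genes at the adjusted threshold of limma. For H3K4me3, limma called 0 of 10247 genes (0% of all genes, 0 of the 8 members) at an adjusted p under 0.05, with 112 genes at an unadjusted p under 0.05. Both KO widths lay below both WT widths at 0 of the 8 genes, against 10.3% of all genes, and above them at 0 of the 8 genes, against 8.32%. The members' median log2 difference, KO minus WT, was -0.05, and that of all genes 0.02. The sign of the members' median depends on the measure, with 0.29 for the widest single peak and 0.21 for summed peaks. It also depends on single libraries. Without WT replicate 1 the members' median was 0.32, beside 0.25 for all genes. Without WT replicate 2 it was -0.41, beside -0.25 for all genes. *Mecom* had the largest H3K4me3 difference of the 8, 1.49 on the log2 scale (95% interval -0.96 to 3.93, adjusted p 1.00). It rests on WT replicate 2, where the domain is the internal one, and without that library it was -0.02.

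For H3K9ac width, limma called 0 of 10837 genes (0%), with 855 at an unadjusted p under 0.05 and a smallest adjusted p of 0.231. Both KO widths lay below both WT widths at 4 of the 8 genes (*Mef2c*, *Eya1*, *Jmjd1c* and *Cdk6*), against 36.7% of all genes, and above them at *Bcl2* alone, against 4.94%. The members' median log2 difference was -0.153, and that of all genes -0.147. Without KO replicate 2 these medians were -0.27 and -0.20. The members' median also lay below that of all genes when any other library was left out. The order of the members' median and that of all genes depends on the measure. The members were lower with the widest single peak (-0.35 against -0.17) and with gaps of 3 kb (-0.29 against -0.14). They were higher with equal peak numbers (-0.080 against -0.13) and with a q-value of at most 0.05 (-0.11 against -0.15). After centring each library on its median, the median of all genes moved to 0.0051 and that of the members to -0.00044, and *Cdk6* (0.07) and *Zeb2* (0.03) turned positive. *Jmjd1c* had the lowest difference, -0.78 (SE 0.36, 95% interval -1.78 to 0.21, adjusted p 0.687), from widths of 8849 and 4710 bp in WT and 3348 and 4202 bp in KO. In KO replicate 2 its widest domain was that 89.6 kb into the gene, so this difference compares starts in part, and at the outermost start alone it was -0.85 (adjusted p 0.663). Without WT replicate 1 it was -0.33, and without WT replicate 2 it was -1.24, so its size rests on the WT library used. *Eya1* had a difference of -0.34 (SE 0.12, 95% interval -0.69 to 0.00, adjusted p 0.635), which was -1.15 with the widest single peak and 0.04 with gaps of 3 kb. Which gene is lowest depends on the measure, since *Eya1* was lowest with the widest single peak and *Cdk6*, at -1.01, with gaps of 3 kb. Exact permutation of 2 against 2 libraries cannot give a p below 0.33.

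**Figure D3:**
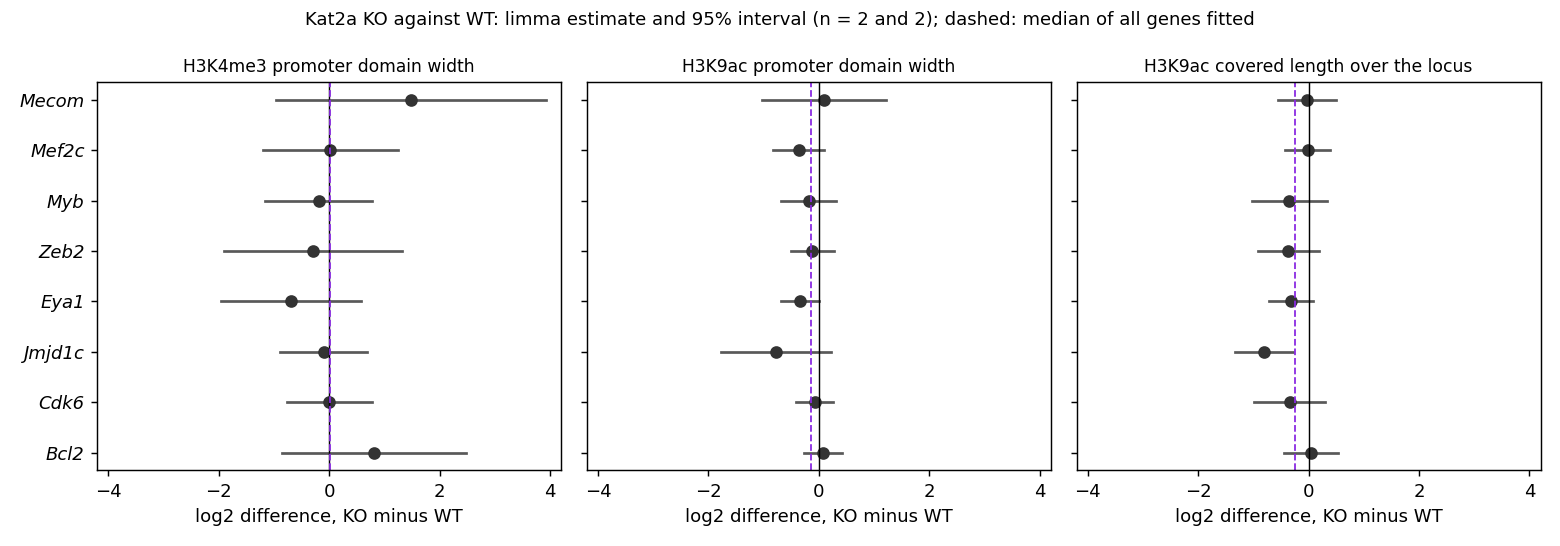
Log2 difference, KO minus WT, with its 95% interval from limma for each gene (2 libraries per genotype), for H3K4me3 width, H3K9ac width and H3K9ac covered length. The dashed median of all genes is at 0.02, -0.15 and -0.24, and the *Jmjd1c* covered length lies at -0.80.

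Over the gene body and 50 kb on each side, the length covered by H3K9ac peaks was lower in KO at *Jmjd1c* in both replicates. It was 29712 and 24747 bp in WT and 13770 and 17599 bp in KO. The log2 difference was -0.80 (SE 0.21, 95% interval -1.32 to -0.28), with an adjusted p of 0.388, so it did not pass the correction. The locus also holds the promoters of *Reep3* and *Nrbf2*. For this length limma called 0 of 15471 genes (0%), with 1686 at an unadjusted p under 0.05. Both KO lengths lay below both WT lengths at 3 of the 8 genes (*Zeb2*, *Eya1* and *Jmjd1c*), against 50% of all genes, and above them at 0 of the 8 genes, against 1.57%. The members' median log2 difference was -0.33, and that of all genes -0.24. Their order rests on single libraries, since the medians were -0.073 and -0.14 without KO replicate 1 and -0.13 and -0.23 without WT replicate 2. With every library kept, centring on library medians gave -0.06 for the members and 0.02 for all genes, and *Mecom* (0.24) and *Mef2c* (0.25) turned positive. Single libraries decide some calls among all genes: without WT replicate 1 there were 4 called genes, and without WT replicate 2 there were 2.

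The genes differed widely in how much of their body was covered. *Cdk6*, with a body of 190 kb, had 48 and 45 intragenic H3K9ac peaks in WT and 37 and 36 in KO. These peaks and the promoter covered 18.5% and 26.3% of the *Cdk6* body in WT and 14.1% and 21.1% in KO, and the KO replicate 2 value lies between the WT values. *Myb* was covered over a similar share of its 36.1 kb body, 21.03% and 21.4% in WT and 13.9% and 20.1% in KO. The make-up of these shares differed. In WT replicate 1, intragenic peaks held 31188 bp at *Cdk6*, beside 34969 bp of body covered. At *Myb* they held 2827 bp, beside 7583 bp of body covered. Body shares over all genes are not given here. *Jmjd1c* had 13.7% and 10.01% of its body covered in WT and 6.21% and 7.08% in KO. *Eya1* had 8.98% and 8.86% in WT and 6.85% and 7.13% in KO. *Zeb2* had 12.2% and 16.3% in WT and 10.3% and 12.5% in KO, and the groups overlapped. At *Mef2c* it was 14.4% to 15.2% of the body in all 4 libraries, and its covered length over the locus differed by -0.01 on the log2 scale. *Mecom*, the longest gene at 597 kb, had 2.89% and 3.96% of its body covered in WT and 3.20% and 3.41% in KO. *Bcl2*, over a body of 176 kb, had 0.881% to 1.12%, with 0 to 2 intragenic peaks, the lowest of the 8 genes.

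Merging the H3K9ac peaks of the 4 libraries gave 194 regions in the 8 loci outside the promoters of protein-coding genes. Promoters of noncoding genes were not set apart, so a region may lie at one. Of the 194 regions, 41 (21.1%) held a peak in all 4 libraries, against 17.5% of 28554 such regions in the genome. A peak in both WT and in neither KO library marked 12 regions (6.19%), against 5.07%. A peak in both KO and in neither WT library marked 4 regions (2.06%), against 0.819%. Regions of 1 locus are not independent, and no test was run on these shares. Of the 41 shared regions, 31 lay in gene bodies and 10 in flanks. In replicate 2 of both genotypes, 32 of the 41 (78.0%) overlapped H3K27ac, against 79.1% of the 4993 regions shared in the genome, and 18 (43.9%) overlapped H3K4me1, against 48.1%.

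*Cdk6* held the most of these regions, 50 in all and 12 in all 4 libraries, and the strongest of them lay in its introns, far from the start. The region chr5:3496281-3503914, 159 kb from the outermost start, had an H3K9ac enrichment of 9.18-fold and 17.0-fold in WT and 8.55-fold and 16.9-fold in KO. Its H3K27ac was 11.4-fold in WT and 16.5-fold in KO, and its H3K4me1 4.09-fold and 6.47-fold. The neighbouring region chr5:3487739-3496000, 150 kb from the start, had H3K9ac at 6.84-fold and 19-fold in WT and 7.64-fold and 15.2-fold in KO. Both regions differed more between replicates than between genotypes. *Jmjd1c* had 34 regions, 7 of them in all 4 libraries, and 4 with peaks in both WT and neither KO library. *Mef2c* had 32 regions, 8 of them shared by all 4 libraries and all of those intronic, the strongest being chr13:83517814-83519121 with 7.82-fold and 12.98-fold in WT and 10.3-fold and 10.2-fold in KO. *Bcl2* had 8 regions and none in all 4 libraries.

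**Figure D4:**
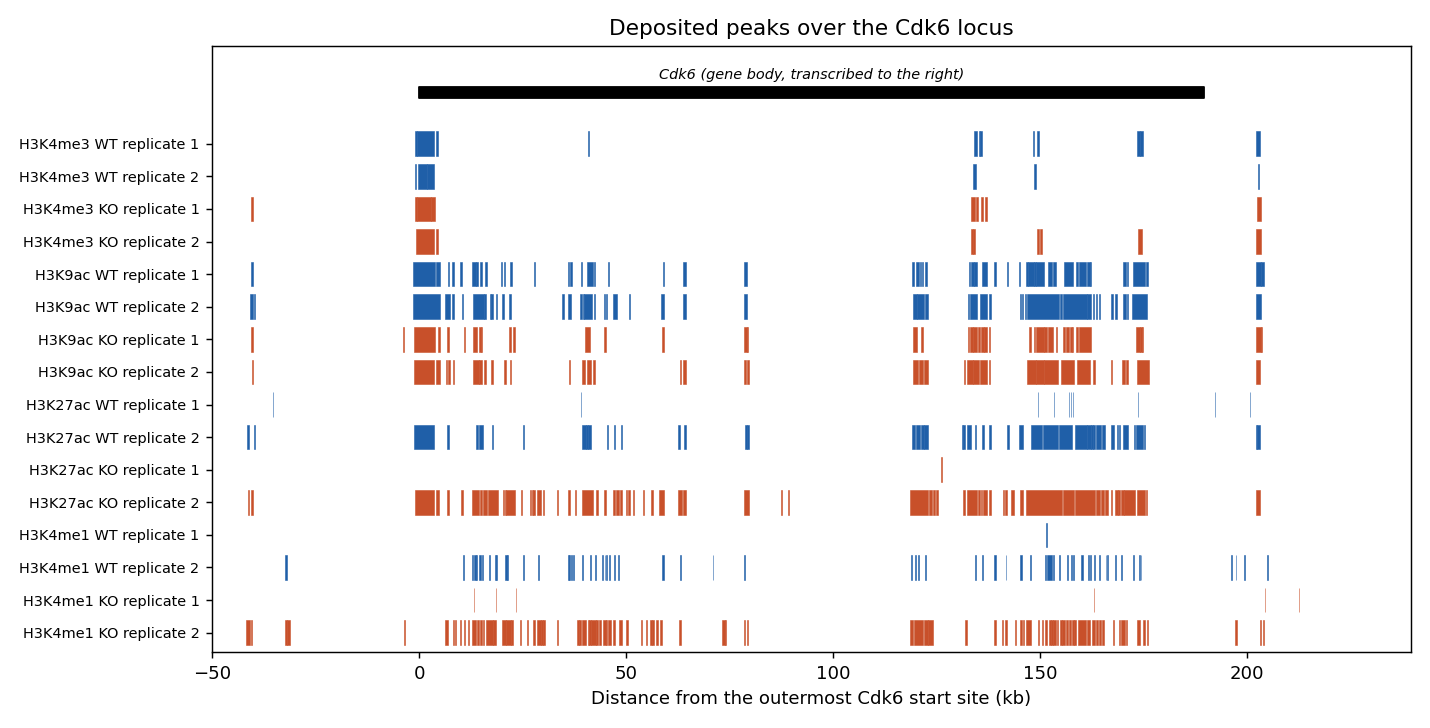
Peaks of the 16 libraries along the *Cdk6* locus, by distance in kb from the outermost start site, with blue for WT and orange for KO. H3K9ac and H3K27ac peaks lie at the start and around 150 kb into the gene, while replicate 1 of H3K27ac and of H3K4me1 holds few.

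H3K4me3 also lay outside the promoters of protein-coding genes. Of the 41 shared regions, 5 (12.2%) had H3K4me3 in all 4 libraries as well, against 16% in the genome. Upstream of *Mecom*, chr3:30594949-30595920 had H3K4me3 at 8.11-fold and 8.22-fold in WT and 4.03-fold and 10.5-fold in KO. That region lies 47.4 kb before the outermost annotated start, in a locus without another protein-coding promoter. Upstream of *Myb*, chr10:21188610-21189274 had H3K4me3 at 7.13-fold and 4.36-fold in WT and 8.79-fold and 4.00-fold in KO. It lies 28.0 kb before the start of *Myb*. The other 3 are in introns, at chr3:30512003-30515682 in *Mecom*, at the *Mef2c* region chr13:83517814-83519121, and at chr5:3473803-3476911 in *Cdk6*. None of the 5 regions carried H3K4me1 in both replicate 2 libraries.

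In replicate 2, more of each locus was covered by H3K27ac and H3K4me1 peaks in KO than in WT, as was more of the genome. For H3K27ac the lists cover 19.7 Mb in WT and 35.8 Mb in KO, and for H3K4me1 11.5 Mb and 42.2 Mb. The median ratio of KO to WT over the 8 loci was 1.95 for H3K27ac, against 1.71 over all genes. For H3K4me1 it was 5.35, against 3.74, and with a q-value of at most 0.05 it was 9.70, against 7.52. *Cdk6* had 40380 bp of H3K27ac in WT and 70940 bp in KO, with a ratio of 1.76. *Mecom* had 761 bp of H3K4me1 in WT and 4918 bp in KO. When the longer list of each mark was trimmed to its strongest peaks, to the length of the shorter, the medians were 1.60 against 1.48 for H3K27ac and 3.51 against 2.61 for H3K4me1. The libraries differ in how much was detected, and with 1 library per genotype the part of the genotype in these ratios was not tested.

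**Figure D5:**
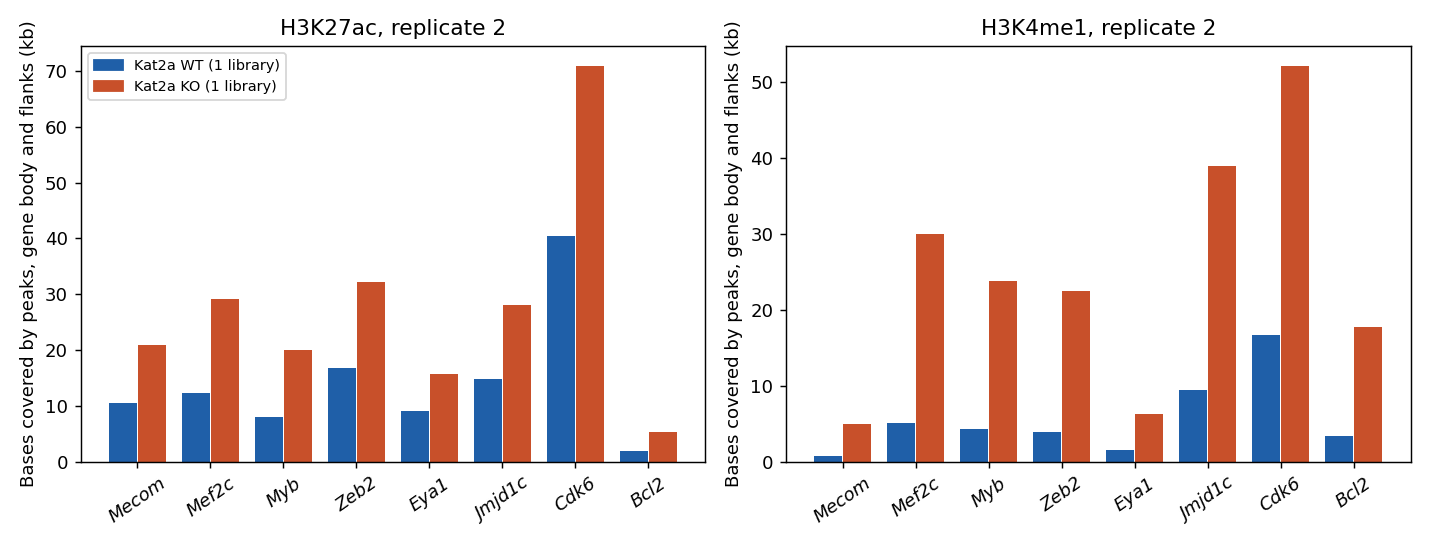
Bases covered by H3K27ac and H3K4me1 peaks over the gene body and flanks of each gene in replicate 2, in kb, 1 library per genotype. KO bars are higher at all 8 genes for both marks, and the whole KO lists are longer too, with 35.8 Mb against 19.7 Mb for H3K27ac.

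H3K4me1 peaks outside protein-coding promoters were most frequent at *Cdk6*, with 64 in WT and 93 in KO. Of these, 27 in WT and 41 in KO overlapped both H3K9ac and H3K27ac of the same genotype and replicate. *Jmjd1c* followed with 33 in WT and 72 in KO, of which 9 and 14 overlapped both acetyl marks. *Bcl2* had 15 in WT and 34 in KO, and 0 of them overlapped both. Among these 3 genes, the share with both acetyl marks was thus highest at *Cdk6*. At *Zeb2*, 6 of 15 peaks in WT and 10 of 42 in KO overlapped both acetyl marks. At *Mecom* it was 1 of 3 in WT and 4 of 13 in KO. The share over all H3K4me1 peaks of the genome is not given here. *Mecom* had the fewest H3K4me1 peaks outside promoters in WT, 3, and *Eya1* the fewest in KO, 11.

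Of 18 other MLL fusion targets, none had an adjusted p under 0.05 for either width in limma (*Sox4* could not be fitted for H3K9ac), and all 18 had H3K4me3 in every library. H3K9ac was at 18 of the 18 in WT replicate 1 and KO replicate 1 and at 17 in the other 2 libraries, where *Sox4* lacked it. At or above the 90th percentile of H3K9ac width were 10, 10, 9 and 10 of them in the order WT replicates 1 and 2, then KO replicates 1 and 2. The 2 widest were *Meis1* and *Arid2*. *Meis1*, a homeobox cofactor, had H3K9ac domains of 16560 and 17303 bp in WT and 16412 and 10745 bp in KO. *Arid2*, a subunit of a chromatin remodelling complex, had 8631 and 8310 bp in WT and 5506 and 7055 bp in KO. Of the 17 fitted for H3K9ac width, both KO values lay below both WT values at 6, against 36.7% of all genes, and above them at 1, against 4.94%. For H3K4me3 width this was 1 of the 18 below, against 10.3%, and 4 above, against 8.32%. For H3K9ac covered length it was 11 of the 18 below, against 50%, and 0 above, against 1.57%. No test was run on these counts.

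The gene nearest to each member in its 8 widths was sought among 9887 protein-coding genes with H3K4me3 and H3K9ac domains in all 8 libraries of these marks, as the Euclidean distance of the log2 widths. *Ier2* was nearest to *Cdk6*, at a distance of 0.196, with H3K9ac domains of 6570 and 6180 bp in WT and 6107 and 6094 bp in KO. *Bcor* was nearest to *Myb* (0.355), *Lpgat1* to *Bcl2* (0.448) and *Ino80d* to *Mef2c* (0.653). *Reep3* was nearest to *Jmjd1c* (0.397), which shares its promoter domain. *Erg* was nearest to *Eya1* (1.12), *Ikzf2* to *Zeb2* (1.16) and *Bbc3* to *Mecom* (1.51) at larger distances.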

How the data were processed

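Reads had been mapped to mm10 with BWA and peaks called per library with MACS2 by the authors. The paper gives a q-value of 0.05 for peak calling, but the deposited lists also hold peaks above it. The main settings kept these peaks. In the H3K4me3 and H3K9ac lists, 85.0% to 96.1% of peaks had a q-value of at most 0.05. For every peak the deposited lists hold, as the authors' values, the fold enrichment at its summit (a ratio to local background), -log10 p, -log10 q, and a score equal to the integer part of 10 times -log10 p. The lists hold no read counts, so depth and precision per library are unknown. The 16 input libraries were not analysed. Promoters (1 kb upstream to 500 bp downstream of any TSS), bodies and 50 kb flanks of protein-coding genes came from GENCODE M21. Peaks were joined across gaps of at most 1 kb, and an overlap of 1 bp counted. Log2 domain widths and covered lengths were compared, KO minus WT, with limma 3.58.1 in R 4.3.3 (two-sided, Benjamini-Hochberg over all genes with a value in all 4 libraries), beside exact permutation tests. Python 3.11.15, numpy 2.4.6, scipy 1.17.1 and matplotlib 3.10.9 were used, and the interval code was checked against bedtools 2.31.1 on simulated data. All 8 members were named. From the list of other targets, genes past the adjusted threshold were to be named, or otherwise the 2 widest and up to 2 lacking H3K4me3 in most libraries, of which there were none. For each member the gene nearest in widths was named. Regions in loci were named after their values were seen. Members and lists were chosen with earlier results of these data known. Alternatives were stricter q-values, equal peak numbers, single or summed peaks, gaps of 3 kb, flanks of 25 and 100 kb, the outermost TSS, a floor of 100 bp for missing values, an overlap of 50%, median centring, a replicate block and leaving out each library.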

Additional observations from a re-analysis of the deposited data

How the results depend on the processing

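No member passed the adjusted threshold of limma under any alternative. Lowest adjusted p-values over the alternatives were 0.218 for H3K4me3 width, 0.325 for H3K9ac width and 0.217 for covered length. The sign of a member's difference turned in 23 of 108 values for H3K4me3 width, 13 of 110 for H3K9ac width and 12 of 96 for covered length, and the cause was not tested. With replicate number as a block, pairing preparations whose numbers are not stated to pair, limma called 0 genes for each of the 3 measures, with 129, 835 and 2582 genes at an unadjusted p under 0.05. With 1 library of each genotype per replicate number, this block cannot move the differences themselves, so its values among the counts above cannot turn. The deviations of replicates with the same number correlated across genes at -0.0517, 0.140 and 0.288, from 2 such pairs. Leaving out each library in turn gave 0 to 2 called genes for H3K4me3 width (2 without KO replicate 2), 0 for H3K9ac width and 0 to 4 for covered length. The lone library of a genotype is then assumed to vary like the others. The members' medians ranged from -0.41 to 0.32, from -0.27 to -0.13 and from -0.41 to -0.073, and those of all genes from -0.25 to 0.25, from -0.20 to -0.085 and from -0.34 to -0.14. For covered length the members' median lay above that of all genes without KO replicate 1 (-0.073 and -0.14) and without WT replicate 2 (-0.13 and -0.23). The median for H3K4me3 width was 0.29 with the widest single peak, 0.21 with summed peaks, 0.14 with a -log10 q of at least 5 and 0.13 with gaps of 3 kb, beside -0.00075, 0.014, -0.0024 and 0.012 for all genes. The median for H3K9ac width was -0.080 with equal peak numbers, -0.35 with the widest single peak, -0.29 with gaps of 3 kb and -0.27 without KO replicate 2, beside -0.13, -0.17, -0.14 and -0.20 for all genes. It was -0.00044 after median centring, and that for covered length -0.063 after centring. The median KO to WT ratio in replicate 2 was 2.071 for H3K27ac and 9.70 for H3K4me1 with a q-value of at most 0.05, beside 1.74 and 7.52 for all genes, and 1.60 and 3.51 with equal peak numbers, beside 1.48 and 2.61. With the outermost TSS alone, H3K4me1 lay at 1 of 8 promoters in both replicate 2 libraries instead of 3. *Mecom*, *Mef2c* or *Bcl2* had no width under some alternatives. Depth is unknown, so a missing peak does not show a missing mark.

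Values that turned for H3K4me3 width follow. With a q-value of at most 0.05 they were -0.028 for *Mef2c* and 0.056 for *Zeb2*. With a -log10 q of at least 5 they were 0.31 for *Jmjd1c*, 0.50 for *Eya1* and 0.076 for *Zeb2*. With the widest single peak they were -0.58 for *Bcl2*, 0.25 for *Jmjd1c*, 0.50 for *Eya1* and 0.0032 for *Zeb2*. Gaps of 3 kb gave 0.26 for *Jmjd1c*, and summed peaks gave 0.36 for *Eya1*. Median centring gave -0.018 for *Mef2c* and -0.036 for *Cdk6*. Leaving out each library gave -0.025 to 2.996 for *Mecom*, -0.61 to 0.66 for *Mef2c*, -0.12 to 0.13 for *Cdk6*, -0.56 to 0.17 for *Myb*, -0.15 to 1.77 for *Bcl2*, -0.27 to 0.063 for *Jmjd1c* and -1.06 to 0.48 for *Zeb2*.

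For H3K9ac width, *Eya1* was -1.15 with the widest single peak and -0.53 with a q-value of at most 0.05, and *Cdk6* was -1.01 with gaps of 3 kb. *Mecom* was -0.37 with a -log10 q of at least 5, -0.42 with the widest single peak, -0.29 with gaps of 3 kb and -0.12 with summed peaks. *Bcl2* was -0.54 with the widest single peak and -0.078 with summed peaks. Gaps of 3 kb gave 0.19 for *Mef2c* and 0.042 for *Eya1*. Median centring gave 0.074 for *Cdk6* and 0.033 for *Zeb2*, and equal peak numbers gave 0.16 for *Myb*. Leaving out each library gave -0.37 to 0.55 for *Mecom*, and -1.24 to -0.33 for *Jmjd1c*, which keeps its sign.

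For covered length, equal peak numbers gave 0.045 for *Mecom* and 0.084 for *Mef2c*, and median centring gave 0.24 and 0.25. *Bcl2* was -0.046 with a -log10 q of at least 5 and -0.0021 with flanks of 100 kb. Leaving out each library gave -0.24 to 0.20 for *Mecom*, -0.054 to 0.025 for *Mef2c* and -0.12 to 0.21 for *Bcl2*.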
